A study of Homo sapiens with 33 samples.

Results

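Glycolysis and the hypoxia response are described here through 34 genes, chosen by name in 3 deposited tables of fitted changes after deletion of GABPB1. Of these, 33 had a row in each table, and the RNA of EGLN3 was not analysed here; it enters only the promoter search and the check for gene copies. The genes are 22 of glucose uptake, glycolysis and lactate handling and 12 of the hypoxia-inducible factor (HIF) system. The tables hold 14332, 14160 and 13310 entries in all for the A-375 total, A-375 long-form and UM-UC-3 total knockout.

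GABPB1 is a subunit of the transcription factor GABP, which binds DNA through its ETS-family partner GABPA. The RNA-seq libraries, 33 in all, came from the melanoma line A-375 and the bladder cancer line UM-UC-3. In A-375, 4 libraries came from B1KO clones, with exons 2 to 9 of GABPB1 deleted, 8 from 5 B1X2KO clones, with exon 2 deleted, and 2 from 2 B1LKO clones, with exon 9, which the long splice form uses, deleted. As controls, A-375 had 4 libraries from 3 ROSA26_KO clones, edited at a safe-harbour locus, and 2 of the parental line. In UM-UC-3, 4 libraries came from B1KO clones, 5 from 4 B1X2KO clones, 3 from ROSA26_KO clones and 1 from the parental line. B1KO and B1X2KO together form the total knockout (12 libraries in A-375, 9 in UM-UC-3). All edited cultures were clones, grown after Cas9 plasmid transfection and cell sorting, and no drug or low-oxygen treatment is given in the labels. Several clones gave a pair of libraries, so the libraries are not all independent.

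Glycolysis splits glucose into pyruvate in the cytosol, and lactate dehydrogenase turns pyruvate into lactate, which leaves the cell through monocarboxylate transporters. HIF joins an oxygen-labile alpha subunit to the stable subunit ARNT. With oxygen, prolyl hydroxylases mark the alpha subunits for destruction through VHL; without it, HIF binds hypoxia response elements and raises transcription of glucose transporters, glycolytic enzymes, angiogenic factors and its own hydroxylases. Many cancer cells also run glycolysis at a high rate in oxygen. HIF activity is set mainly at the level of the alpha protein, which RNA does not show.

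Each table gives 1 value per gene: the mean normalized count over the libraries of a fit, and the log2 fold change of knockout over control with its standard error (SE). The tables give no value for single libraries, so library depths are unknown and the spread among cultures enters through the SE. The deposited comparisons are named as knockout over parental. The control libraries that entered each fit, parental or ROSA26_KO, are not listed in the sources used here. If the name is literal, the controls were 2 libraries in A-375 and 1 in UM-UC-3, of unedited and uncloned cells. Editing and cloning then cannot be told apart from the knockout in any fit. As a check of the target, the entry GABPB1L was lower per the authors' deposited table of all 3 knockouts (adjusted p 1.61e-47, 1.78e-14 and 1.32e-66 in the A-375 total, A-375 long-form and UM-UC-3 total knockout). GABPB1S was lower in both total knockouts (adjusted p 2.76e-38 and 0.00191) and higher in the long-form knockout (adjusted p 3.55e-37) per the authors' deposited table. Entries named GABPB1L-DEX2 and GABPB1S-DEX2, a suffix that the labels do not explain, were higher in both total knockouts (adjusted p 3.74e-09 and 3.37e-08 in A-375, 1.98e-13 and 2.23e-08 in UM-UC-3), with means of 615 and 257 in A-375 and 798 and 252 in UM-UC-3, per the authors' deposited table. GABPB1S-DEX2 was lower in the long-form knockout (log2 change -12.0, adjusted p 1.76e-12), where GABPB1S changed by 13.95, per the authors' deposited table. In the A-375 total knockout the signs were reversed, with -9.81 for GABPB1S and 12.36 for GABPB1S-DEX2, per the authors' deposited table. Both entries thus changed in opposite directions in the A-375 fits, and the reason was not tested. Whether the controls differed, or whether each name marks the same transcript in both fits, cannot be read from the sources used here. Some entry of the locus rose in each knockout, and its transcript was still counted there. Line markers were few. In A-375, 5 of 8 melanocyte genes had a row, with mean normalized counts per the authors' deposited table of 14704 for SOX10, 686 for MITF and 20.1 for the pigment gene PMEL. In UM-UC-3, 6 of 12 urothelial and epithelial genes had a row, and KRT18, GATA3 and KRT7 did not set the line apart. Scaled from the means of the authors' deposited table to a total of 1000000 per table (CPM), KRT18 had 189 CPM in UM-UC-3 and 249 in A-375. GATA3 had 4.59 and 5.18 CPM, and KRT7 3.15 and 4.08. The urothelial gene UPK1A had a row in UM-UC-3 only (mean 35.3) per the authors' deposited table. SOX10 had 756 CPM in A-375 and 2.21 in UM-UC-3 on that scale. By unscaled mean, MITF (686 in A-375, 357 in UM-UC-3) and S100B (1586 and 53.1) went with SOX10, per the authors' deposited table. TYRP1 went the other way (15.3 and 64.7), and DCT had a row in UM-UC-3 only (mean 109), per the authors' deposited table. Of these 6 epithelial genes 4 were higher and 1 lower in the UM-UC-3 knockout, and of 6 measured melanocyte genes 2 were higher. Of all genes there, 17.0% were higher and 14.2% lower, and with sets this small nothing particular to the markers is read from the counts. The part of these changes in the results on the pathway was not tested.

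The glycolytic members were abundant in both lines, while the HIF response genes spread widely. The median member stood at the 92.4th percentile of mean normalized counts in the A-375 total table and at the 91.3rd in that of UM-UC-3, but the median HIF response gene stood at the 50.7th and the 80.9th. CA9 was at the 13.9th percentile in A-375 and at the 2.34th in UM-UC-3, and CA12 was lower still in A-375 (mean 24.1). To compare genes, CPM values were divided by the length of the longest coding transcript in kilobases. On this scale GAPDH, the dehydrogenase that opens the second phase of glycolysis, had the highest level (2032 in the A-375 total table and 1653 in that of UM-UC-3). ENO1, the main enolase, followed with 849 and 831. The aldolase ALDOA had 679 and 422, and pyruvate kinase PKM 779 and 397.

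Per length, PFKP, LDHB, ALDOA, ENO1 and SLC16A1 led their families in both lines, and the leading form differed for the hexokinases and for PFKFB3 and PFKFB4. The A-375 leads of LDHB and PFKFB4 rest on the division by annotated length. By mean normalized count, LDHA (17559) exceeded LDHB (13645) and PFKFB3 (4078) exceeded PFKFB4 (3647) in the A-375 total table. Hexokinase commits glucose to the cell by phosphorylating it, and HK1 made up 66.4% of the 2 hexokinases per length in the A-375 total table but 12.7% in that of UM-UC-3, where HK2 prevailed. Among phosphofructokinases, which catalyse the committed step, PFKP made up 45.4% in A-375 and 67.8% in UM-UC-3. LDHB, the lactate dehydrogenase that favours the return of lactate to pyruvate, had 456 CPM per kilobase against 374 for LDHA in A-375, and 614 against 262 in UM-UC-3. The brain-type aldolase ALDOC had a level of 35.8 CPM per kilobase in A-375 and 2.90 in UM-UC-3. PFKFB4, a kinase that makes the phosphofructokinase activator fructose bisphosphate, had 52.3 and 3.68, beside 46.3 and 20.6 for PFKFB3.

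The HIF system differed between the lines in its alpha subunits. HIF1A reached 75.3 CPM per kilobase in the A-375 total table and 51.5 in that of UM-UC-3. EPAS1, which encodes HIF-2alpha, was at 1.84 in A-375 and at 70.0 in UM-UC-3, so that it made up 2.39% and 57.6% of the alpha subunit transcripts. The membrane carbonic anhydrase CA12 showed a like contrast, with 0.193 in A-375 and 37.7 in UM-UC-3. Its relative CA9, a widely used hypoxia marker, was scarce in both (1.85 and 0.603). These levels average knockout and control libraries of 1 fit each, and the tables were normalized separately, so they were not tested.

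**Figure D1:**
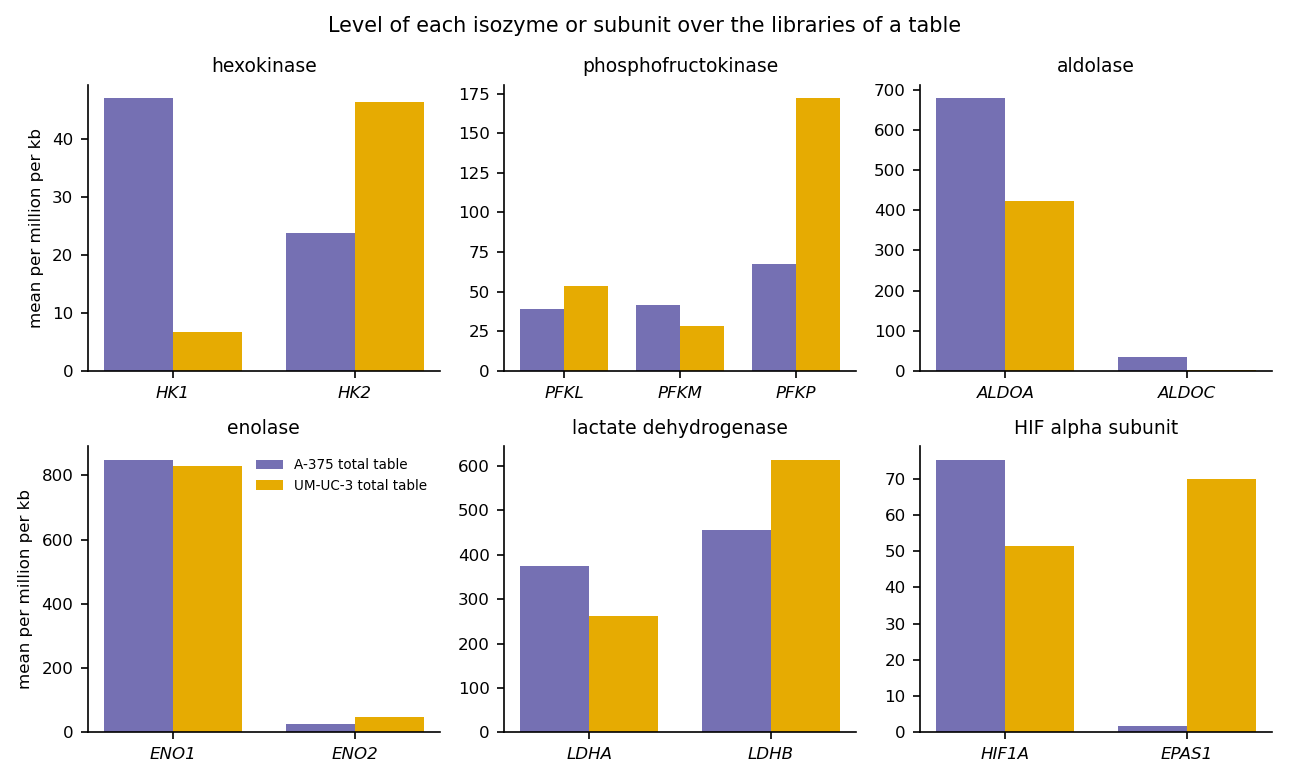
Bars give the mean normalized count as CPM per kilobase of the longest coding transcript, for 6 enzyme or subunit families, in the A-375 total (purple) and UM-UC-3 total (yellow) tables; each bar is 1 deposited mean over all libraries of a fit, without error. HK1 leads in A-375 (47.1 against 23.8 for HK2) and HK2 in UM-UC-3 (46.5 against 6.74), and EPAS1 stands at 1.84 in A-375 and at 70.0 in UM-UC-3.

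Promoters were searched for 2 cores because GABP and HIF each bind a known short motif. These were CCGGAAG, a core bound by GABP and other ETS factors, and ACGTG, a core of the hypoxia response element. Other forms of either core were not searched, so a window said to hold neither core lacks only these exact letters. Both strands of RefSeq windows on GRCh38.p14 (250 bases before a start to 50 after it) were read. Windows were found for 31 of 34 members. SLC16A1, VEGFA and NDRG1 had none. ACGTG was in at least 1 window of 16 of the 31 members (51.6%), against 24.9% of 27305 genes, and in 34.5% of the 58 member windows against 21.4% of 35116 windows. CCGGAAG was in a window of 5 members (16.1%), against 12.2% of all genes. An ACGTG within CACGTG is also an E-box, the site of MYC and related factors, and is then counted on both strands. A match describes letters in a window and shows no binding.

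The stretches of 30 bases below show 1 match, in capitals, for each core and gene: ACGTG in the members whose RNA changed in any table, and CCGGAAG in each member that has it. All are read on the gene's strand, so CTTCCGG and CACGT are the cores on the other strand.
LDHA hypoxia core (chr11:18394478-18394507, plus strand): cgtgggttcccgCACGTccgccggcccccc
GAPDH hypoxia core (chr12:6535172-6535201, plus strand): ctctgcggggtCACGTGtcgcagaggagcc
ENO2 hypoxia core (chr12:6914450-6914479, plus strand): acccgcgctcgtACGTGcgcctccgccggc
TPI1 hypoxia core (chr12:6868076-6868105, plus strand): cgtgcgccgccgCACGTagccccagactcc
PFKM hypoxia core (chr12:48105347-48105376, plus strand): agatccagagatCACGTtagggtacaccaa
PFKM ETS core (chr12:48106111-48106140, plus strand): ccttcacagcaCCGGAAGagtcgctaggtg
LDHA ETS core (chr11:18396246-18396275, plus strand): ggcccgcccatCTTCCGGacttgggcgggg
GPI ETS core (chr19:34364972-34365001, plus strand): ccccactgccaCTTCCGGgcagaggccagc
PFKP ETS core (chr10:3067990-3068019, plus strand): atggcggtaggaacctccatCCGGAAGatc
ANKRD37 ETS core (chr4:185396783-185396812, plus strand): caagggccggcCCGGAAGtcccagcggtct
The GAPDH match lies within a CACGTG. The windows of LDHA hold further matches, with CACGTG at positions -185 and -87 from its first start, and CCGGAAG at its second start only.

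**Figure D2:**
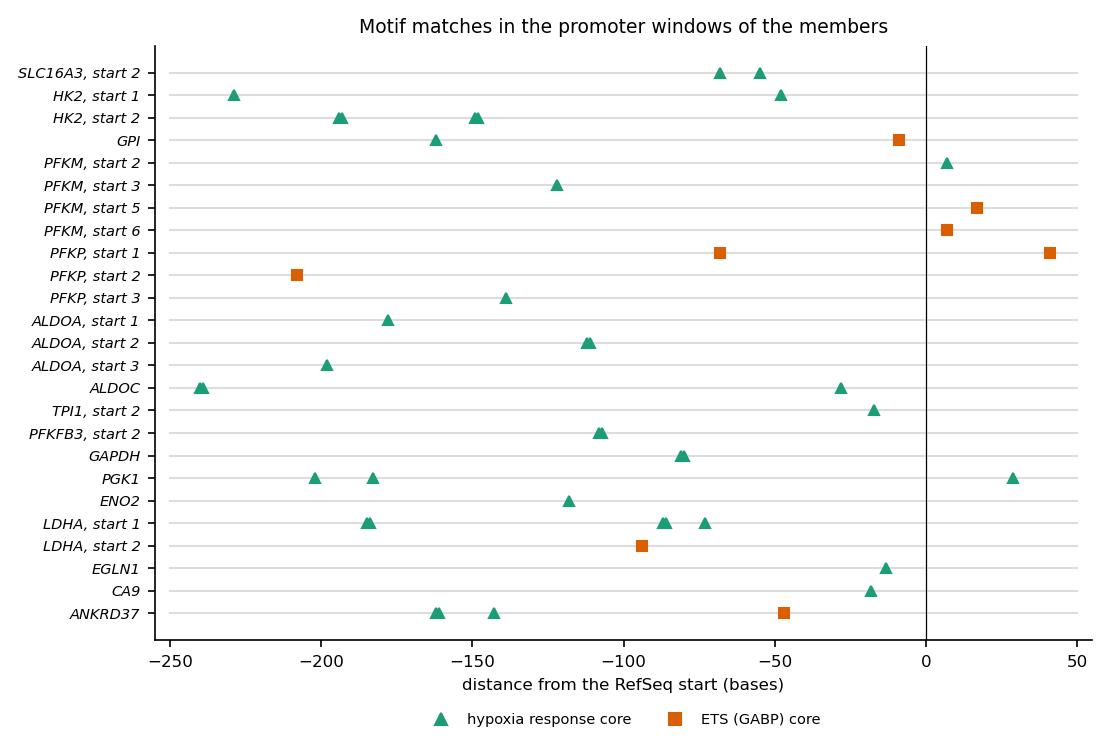
Each line is a RefSeq promoter window of a member with at least 1 match, drawn from 250 bases before to 50 bases after the start (x axis, bases); triangles mark the first base of a hypoxia response core on either strand and squares that of an ETS core. LDHA has 5 hypoxia core matches at its first start and 1 ETS core at its second, and GPI has an ETS core at position -9.

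In UM-UC-3, the total knockout moved the pathway in both directions. Of the 8 members from triose phosphate to lactate 5 were lower and 1 higher, while all 3 HIF subunits and the HIF target VEGFA were higher. Of 33 members, 17 passed an adjusted p of 0.05 from DESeq2's Wald test, 8 higher and 9 lower, where 31.1% of all 13310 genes passed (17.0% higher and 14.2% lower). All 17 kept their call and direction after centring on the median of all genes. The median log2 change of the members was -0.03, beside 0.03 for all genes.

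Of the 3 transporters, 2 were lower, where 14.2% of all genes were. SLC2A1, which encodes the glucose importer GLUT1, had a mean normalized count of 6451 and changed by -0.52 ± 0.20 (SE; adjusted p 0.03), and SLC16A1, the lactate carrier MCT1, had 8138 and changed by -0.36 ± 0.10 (adjusted p 0.00169) per the authors' deposited table. The call of SLC2A1 did not pass a threshold of 0.01. The lactate exporter SLC16A3 (MCT4) was at -0.24 ± 0.46 (adjusted p 0.723) per the authors' deposited table.

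From glucose to triose phosphate, 2 members were higher and 2 lower of 11, where 17.0% and 14.2% of all genes were. HK1 (mean 1143) rose by 0.89 ± 0.20 (adjusted p 0.000113), to 1.85 times the control, per the authors' deposited table. The more abundant HK2 was at 0.03 ± 0.19 (adjusted p 0.923) per the authors' deposited table. The muscle phosphofructokinase PFKM (mean 3841) rose by 0.41 ± 0.13 (adjusted p 0.00704) per the authors' deposited table. The liver form PFKL (mean 6638) changed by -0.49 ± 0.15 (adjusted p 0.00502), and the most abundant form, PFKP, was at -0.03 ± 0.12 (adjusted p 0.849) per the authors' deposited table. The 95% intervals of PFKM (0.16 to 0.65) and PFKL (-0.77 to -0.20) did not overlap. Triosephosphate isomerase TPI1 (mean 26147), which makes both trioses usable, changed by -0.76 ± 0.19 (adjusted p 0.000785) per the authors' deposited table. The isomerase GPI, ALDOA, ALDOC, PFKFB3 and PFKFB4 did not pass, with changes from -0.23 (ALDOA) to 0.53 (ALDOC) per the authors' deposited table.

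From triose phosphate to lactate, 5 of 8 members were lower and 1 was higher, where 14.2% and 17.0% of all genes were. ENO1 (mean 82582) changed by -0.83 ± 0.14 (adjusted p 6.22e-08), to 0.562 of the control, per the authors' deposited table. LDHA (mean 26797), which makes lactate, changed by -0.86 ± 0.22 (adjusted p 0.000872) and LDHB (mean 40027) by -0.53 ± 0.16 (adjusted p 0.00567) per the authors' deposited table. PKM (mean 45758), which makes pyruvate and ATP, changed by -0.59 ± 0.14 (adjusted p 0.000413) per the authors' deposited table. GAPDH (mean 131385), often used as a loading control, changed by -0.56 ± 0.17 (adjusted p 0.00683) per the authors' deposited table. The ATP-making kinase PGK1 and the mutase PGAM1 had changes of about the same size but wider errors (-0.59 ± 0.33, adjusted p 0.155, and -0.59 ± 0.39, adjusted p 0.239) per the authors' deposited table. The neuronal enolase ENO2 (mean 5634) went the other way, with a rise of 0.60 ± 0.17 (adjusted p 0.00282) per the authors' deposited table. Its 95% interval (0.27 to 0.94) lay apart from that of ENO1 (-1.10 to -0.56). Both LDHA and GAPDH, which fell, and ENO2, which rose, hold the hypoxia core in the promoter stretches shown above, while ENO1 and PKM have neither core in their windows. Of the 15 members with a window that were called in any knockout, 5 hold the hypoxia core and 10 hold neither core. Among all 31 members with a window, 16 hold the hypoxia core, so it was not more frequent in the called members.

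All 3 HIF subunits rose. EPAS1 (mean 15331) rose by 1.01 ± 0.21 (adjusted p 3.17e-05), to 2.01 times the control, HIF1A (mean 8633) by 0.74 ± 0.21 (adjusted p 0.00263) and ARNT (mean 3043) by 0.75 ± 0.12 (adjusted p 3.34e-08) per the authors' deposited table. None of the 3 has either core in its promoter windows.

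Of 8 measured HIF response genes, 2 were higher and 0 lower by DESeq2's Wald test. Of all genes 17.0% were higher and 14.2% lower, and with a set this small nothing particular to it is read from the count. VEGFA, which drives vessel growth (mean 5544), rose by 0.85 ± 0.16 (adjusted p 6.81e-06), and the histone demethylase KDM3A (mean 5309) by 0.40 ± 0.14 (adjusted p 0.0162) per the authors' deposited table; KDM3A did not pass a threshold of 0.01. The hydroxylase EGLN1 was at 0.08 ± 0.12 (adjusted p 0.656), a 95% interval of -0.16 to 0.31, per the authors' deposited table. The stress-responsive gene NDRG1 was at 0.27 ± 0.36 and ANKRD37, an ankyrin-repeat gene, at 0.23 ± 0.31 per the authors' deposited table. CA12 was at -0.52 ± 0.23 (adjusted p 0.0741), and at an unadjusted p under 0.05 it was the only 1 of the 11 HIF members with a lower value, per the authors' deposited table. CA9 (1.34 ± 1.16) and the vasodilator peptide gene ADM (-0.93 ± 0.63) had errors too wide for a direction per the authors' deposited table. Some glycolytic HIF targets, SLC2A1, LDHA and ENO1, were thus lower in the same libraries in which VEGFA and the subunits were higher. Not all glycolytic members were called lower with them: ENO2 was higher (0.60 ± 0.17), and HK2, ALDOA, ALDOC, PFKFB3, PFKFB4, PGK1 and SLC16A3 did not pass. Of those that did not pass, PGK1 (-0.59 ± 0.33), ALDOA (-0.23 ± 0.14) and SLC16A3 (-0.24 ± 0.46) had estimates below 0. HK2, ALDOC, PFKFB3 and PFKFB4 had estimates above 0, per the authors' deposited table.

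**Figure D3:**
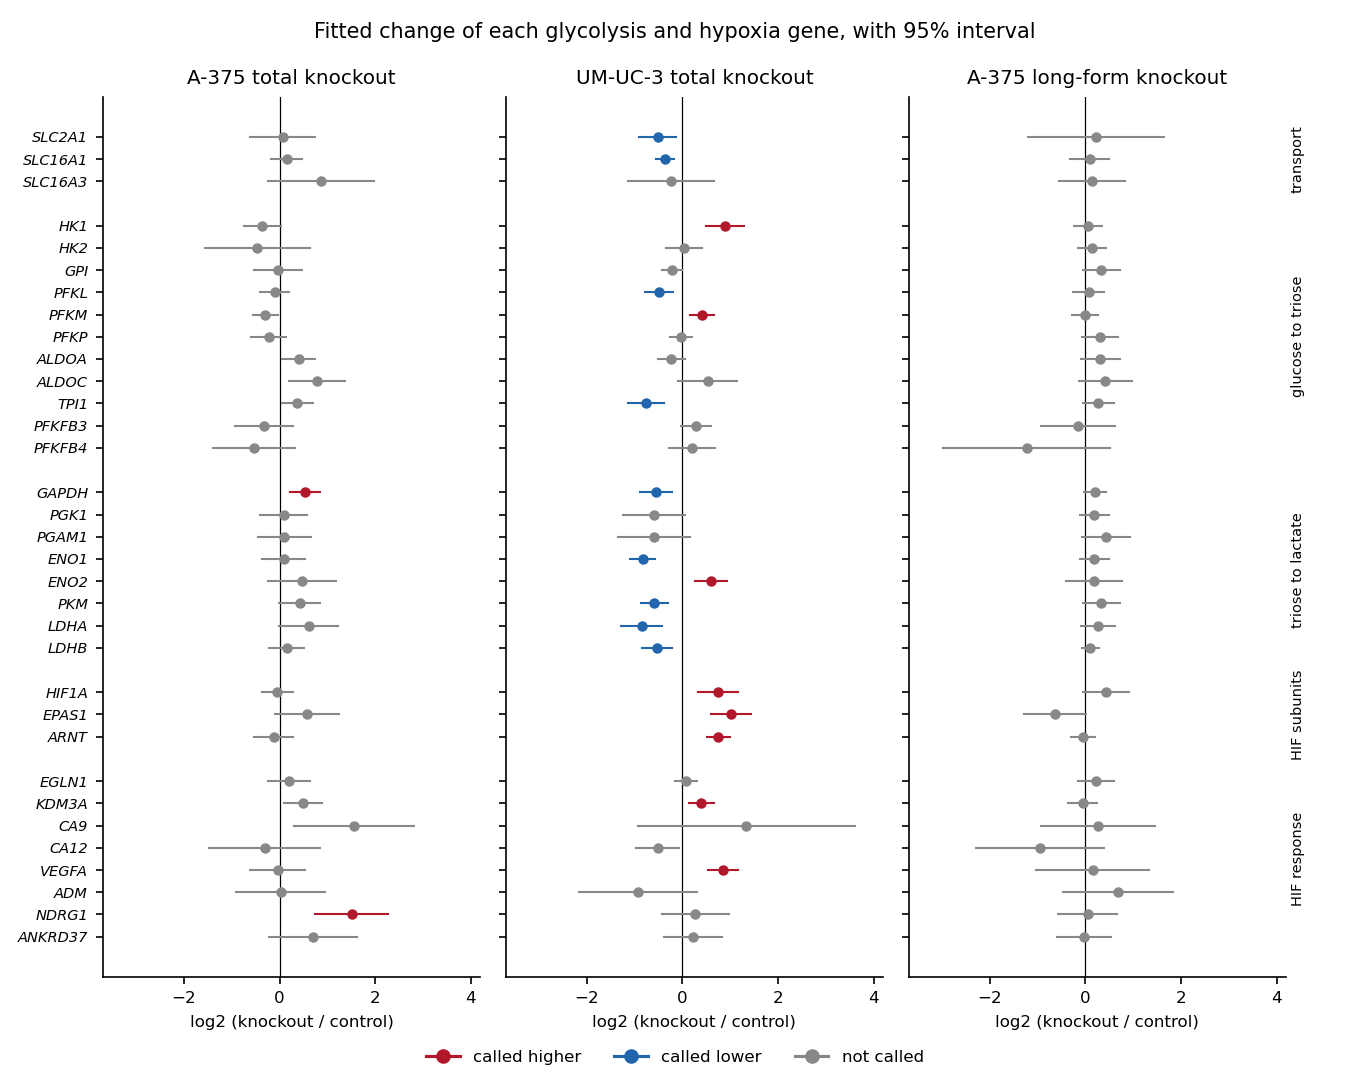
Points give the log2 fold change of knockout over control of 33 genes in the 3 deposited tables, with 95% intervals as lines (1.96 SE on either side); genes are grouped by role, and colour shows whether the authors' adjusted p was under 0.05. In UM-UC-3, ENO1, PKM, LDHA and LDHB lie to the left of 0 and the 3 HIF subunits to the right, while in A-375 only GAPDH and NDRG1 are coloured in the total knockout and none in the long-form knockout.

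Abundance and transcript length moved with these changes. Of the other genes whose mean normalized count reached 10000 in the UM-UC-3 table, 24.8% were called lower and 7.77% higher, with a median log2 change of -0.16 (n = 746). The 14 members in that class had 6 lower and 1 higher and a median of -0.54. Among other genes whose longest coding transcript is under 2500 bases, 20.5% were lower and 12.1% higher, and of the 11 members in that class 5 were lower and 0 higher. The part of either in the result was not tested.

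**Figure D4:**
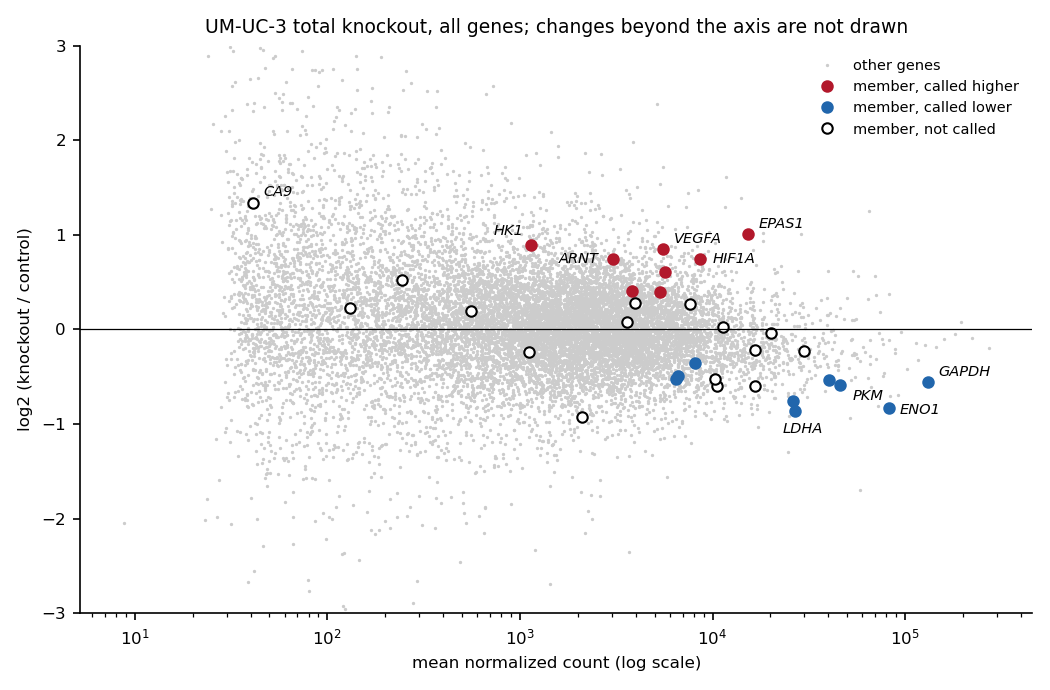
Each point is a gene of the UM-UC-3 total-knockout table, with the mean normalized count on a log axis (x) and the log2 fold change of knockout over control (y); grey dots are other genes and large circles the 33 members, red where called higher, blue where called lower and open where not called. The blue members include the most abundant ones, GAPDH (131385) and ENO1 (82582), and the red ones lie between means of 1143 (HK1) and 15331 (EPAS1).

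Shared reads limit some of these values. In GENCODE 29, 14 members have a pseudogene, processed or unprocessed, that carries their name (62 for GAPDH). An exon of 15 members is overlapped by a gene on the opposite strand, and the sources used here do not say whether reads were counted by strand. An exon of 9 members is overlapped by a gene on the same strand, which counting by strand would not separate. No value here measures shared reads, and the values of these genes are uncertain to that extent. Of the 9 members with no overlap and no named pseudogene, 5 passed in UM-UC-3: ENO2, EPAS1, ARNT and KDM3A higher and PFKL lower. TPI1, GAPDH, ENO1, PKM, LDHA and LDHB, all lower, each have a named pseudogene.

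In A-375, the melanoma line, few members changed after the total knockout. NDRG1 and GAPDH were higher and no member was lower. These were 2 of 33, where 10.8% of all 14330 genes passed (5.07% higher and 5.74% lower; after centring 906 genes were higher and 647 lower, against 726 and 823). At an unadjusted p under 0.05, 7 members were higher and 1, PFKM, was lower, 8 of 33 where 25.3% of all genes had such a p, and no other tool could be run on a table of fitted values. The median log2 change of the members was 0.10, beside -0.05 for all genes.

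NDRG1 (mean 4292; chromosome 8, 133237171 to 133302022, hg38) rose by 1.51 ± 0.39 (adjusted p 0.00322), to 2.85 times the control, per the authors' deposited table. It is induced by hypoxia and by several other stresses. GAPDH (mean 74142) rose by 0.53 ± 0.16 (adjusted p 0.0157) per the authors' deposited table, a call that did not pass a threshold of 0.01 or a 1.5-fold minimum. ALDOC (mean 1381) was at 0.79 ± 0.30 with an adjusted p of 0.0649 per the authors' deposited table. Recomputed after centring on the median of all genes, its adjusted p was 0.0464. LDHA was at 0.61 ± 0.31 (adjusted p 0.200), PKM at 0.42 ± 0.22 (adjusted p 0.202) and TPI1 at 0.38 ± 0.16 (adjusted p 0.112) per the authors' deposited table. The 8 members from triose phosphate to lactate had estimates between 0.09 and 0.61, and 1 of them passed.

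The HIF subunits of A-375 gave -0.05 ± 0.17 for HIF1A (adjusted p 0.889), -0.12 ± 0.21 for ARNT (adjusted p 0.753) and 0.58 ± 0.34 for the scarce EPAS1 (mean 185; adjusted p 0.277) per the authors' deposited table. The 95% interval of HIF1A ran from -0.38 to 0.28. VEGFA was at -0.04 ± 0.30 (adjusted p 0.947) and EGLN1 at 0.20 ± 0.22 (adjusted p 0.611) per the authors' deposited table. KDM3A (0.49 ± 0.20, adjusted p 0.0941) and CA9 (1.56 ± 0.64, adjusted p 0.0922, mean 58.4) missed the threshold per the authors' deposited table. SLC2A1 was at 0.06 ± 0.34, and SLC16A3 at 0.87 ± 0.56 per the authors' deposited table. HK1 (-0.36 ± 0.19, adjusted p 0.231) and PFKM (-0.30 ± 0.13, adjusted p 0.131), which rose in UM-UC-3, had estimates below 0 here per the authors' deposited table.

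Whether the response differed between the lines was tested gene by gene. The 2 log2 changes were subtracted, the result was divided by its standard error and read on a normal scale, and p-values were adjusted (Benjamini-Hochberg) over the 12640 genes that reached a mean of 10 in each of the tables. The 2 tables share no library. Of 33 members, 9 differed, where 10.4% of all genes did. The change was higher in A-375 for 5 members, where 4.12% of all genes were, and higher in UM-UC-3 for 4, where 6.32% were (8 and 3 when each table was centred on its median, where all genes gave 763 and 568 against 521 and 799).

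The 5 members with a higher change in A-375 were TPI1 and 4 genes of the steps from triose phosphate to lactate. LDHA differed by 1.46 ± 0.38 (SE; adjusted p 0.00440), TPI1 by 1.14 ± 0.25 (adjusted p 0.000655), GAPDH by 1.09 ± 0.24 (adjusted p 0.000481), PKM by 1.01 ± 0.26 (adjusted p 0.00403) and ENO1 by 0.92 ± 0.27 (adjusted p 0.0119). GAPDH was called in both lines with opposite sign. The mean of each of the 5 passed 10000 in A-375 and in UM-UC-3, and other genes of that abundance also moved apart: in A-375 their median was 0.16, with 7.66% higher and 2.55% lower, against -0.16 in UM-UC-3, with 7.77% higher and 24.8% lower. The part of this in the difference was not tested. The members with a higher change in UM-UC-3 were HK1 (-1.25 ± 0.28, A-375 minus UM-UC-3; adjusted p 0.000694), PFKM (-0.70 ± 0.18, adjusted p 0.00450), ARNT (-0.87 ± 0.24, adjusted p 0.00797) and HIF1A (-0.79 ± 0.27, adjusted p 0.0368). HIF1A lost this call after centring and ENO1 and HIF1A at a threshold of 0.01. ALDOA (0.63 ± 0.23, adjusted p 0.0519), LDHB (0.68 ± 0.25, adjusted p 0.0523), SLC16A1 (0.50 ± 0.19, adjusted p 0.0655) and VEGFA (-0.89 ± 0.34, adjusted p 0.0663) lay just outside; the first 3 passed after centring. EPAS1 (-0.43 ± 0.40, adjusted p 0.529), ENO2 (-0.14 ± 0.40, adjusted p 0.868) and NDRG1 (1.24 ± 0.53, adjusted p 0.109) were not shown to differ between the lines, though each passed in only 1 of them.

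**Figure D5:**
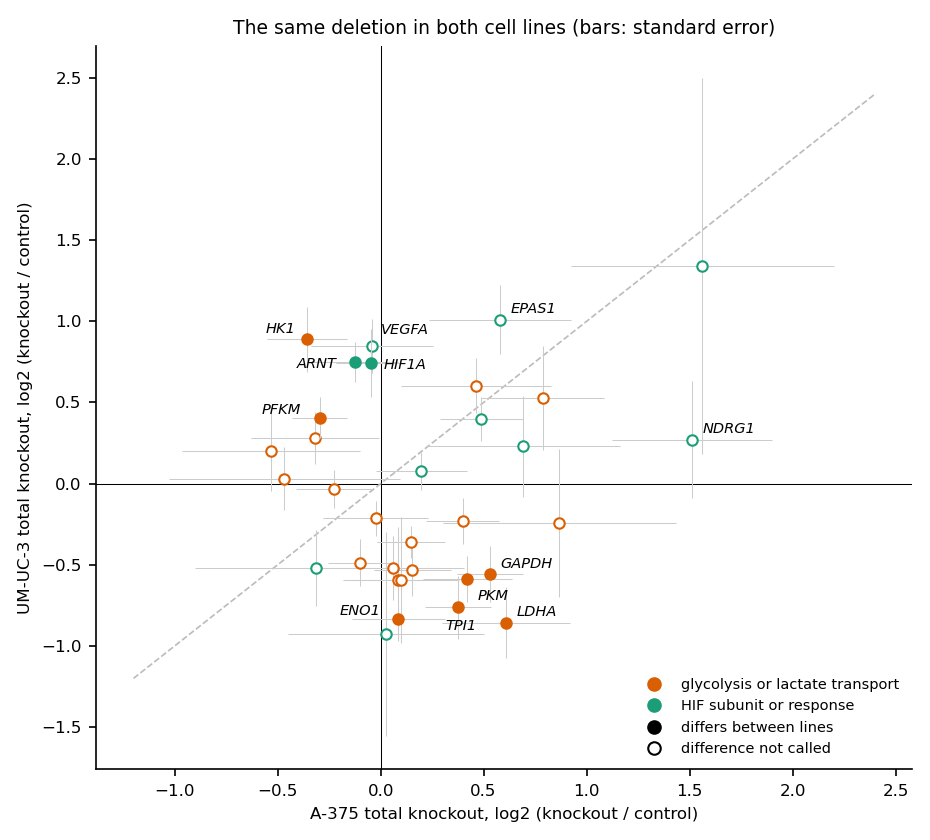
Each point is a member, with the log2 fold change in the A-375 total knockout on the x axis and in the UM-UC-3 total knockout on the y axis, and bars of 1 SE; filled points are the 9 members whose change differed between the lines, and the dashed line marks equal changes. LDHA, TPI1, GAPDH, PKM and ENO1 lie at the lower right and HK1, PFKM, ARNT and HIF1A at the upper left.

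The long-form knockout, with 2 libraries from 2 clones, asked what follows when the short form is kept. No member passed DESeq2's Wald test, 0 of 33, and none had an unadjusted p under 0.05, where 0.904% of all 14156 genes passed (0.240% higher and 0.664% lower) and 1545 had an unadjusted p under 0.05. The smallest adjusted p among the members was 0.468, for EPAS1 (-0.63 ± 0.33) per the authors' deposited table. GAPDH was at 0.21 ± 0.12, ENO1 at 0.19 ± 0.16 and LDHA at 0.27 ± 0.18 per the authors' deposited table. LDHB had the narrowest error, with 0.11 ± 0.09 (adjusted p 0.664) per the authors' deposited table. HIF1A was at 0.43 ± 0.24 and PFKFB4 at -1.22 ± 0.89 per the authors' deposited table.

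Long-form and total knockout of A-375 may share control libraries, and then the standard error of their difference is too large. GABPB1S and GABPB1S-DEX2 changed in opposite directions in these fits, as given above, and the bearing of this on the difference was not tested. By the same test of the difference, 0 of 33 members differed, where 4.45% of 13949 genes did (2.66% higher in the long-form and 1.79% higher in the total knockout; 239 and 287 genes after centring, against 371 and 250), and 4 members had an unadjusted p under 0.05. NDRG1 came nearest (long-form minus total -1.47 ± 0.50, adjusted p 0.0677), from 0.05 ± 0.32 in the long-form and 1.51 ± 0.39 in the total knockout per the authors' deposited table. EPAS1 followed (-1.21 ± 0.47, adjusted p 0.123).

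Other genes of these pathways were read from 6 lists chosen by function. Beside their counts stand the shares of all genes, 17.0% higher and 14.2% lower in UM-UC-3 and 5.07% and 5.74% in A-375, and with lists this short nothing particular to a list is read from its count. In UM-UC-3, 6 of 15 further glycolysis genes passed, 2 higher and 4 lower. The phosphatase MINPP1, which also acts on bisphosphoglycerate, changed by -2.46 ± 0.26 (adjusted p 1.36e-18), PFKFB2, a relative of PFKFB3, rose by 1.47 ± 0.17 (adjusted p 9.13e-15), and the mitochondrial phosphatase PGAM5 changed by -0.56 ± 0.13 (adjusted p 0.000349) per the authors' deposited table. The changes of MINPP1 and PFKFB2 differed from those of A-375 (adjusted p 0.00577 and 1.04e-05), where 1 of 16 listed genes was higher and 1 lower.

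Among 30 further HIF response genes, 6 were higher and 1 lower in UM-UC-3 and 4 were higher and 0 lower in A-375 (7 had an unadjusted p under 0.05 in either direction). TMEM45A, a transmembrane protein gene, rose in both lines, by 3.00 ± 0.55 (adjusted p 1.90e-06) in UM-UC-3 and by 1.73 ± 0.37 (adjusted p 0.000304) in A-375, per the authors' deposited table. STC1, a secreted glycoprotein gene, rose by 3.19 ± 0.60 (adjusted p 1.85e-05) in A-375 and was at 0.64 ± 0.54 (adjusted p 0.392) in UM-UC-3 per the authors' deposited table, a difference that passed (adjusted p 0.0236). The nuclear receptor RORA rose by 1.58 ± 0.34 (adjusted p 6.17e-05) in UM-UC-3 per the authors' deposited table. The lists' medians were 0.18 in A-375 and 0.17 in UM-UC-3, beside -0.05 and 0.03 for all genes.

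Of 15 genes that control HIF, 1 was higher and 5 were lower in UM-UC-3. The lower ones included 2 partners of VHL in the ubiquitin ligase that marks HIF alpha, RBX1 (-0.63 ± 0.14, adjusted p 7.32e-05) and ELOC (-0.58 ± 0.14, adjusted p 0.000356) per the authors' deposited table. The other members of that ligase did not pass: VHL was at -0.09 (adjusted p 0.437), CUL2 at 0.05 (adjusted p 0.759) and ELOB at -0.10 (adjusted p 0.782), named here after their values were seen, per the authors' deposited table. The ligase SIAH1, which acts on the hydroxylases, rose by 0.59 ± 0.18 (adjusted p 0.00598) per the authors' deposited table. In A-375, 1 of 15 was lower and 0 higher, with 2 at an unadjusted p under 0.05.

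Branches of glycolysis were mixed. Of 10 pentose phosphate genes, 1 was higher and 3 lower in UM-UC-3: H6PD, of the endoplasmic reticulum, rose by 0.60 ± 0.19 (adjusted p 0.00969), the transaldolase TALDO1 changed by -0.45 ± 0.10 (adjusted p 0.000158) and PRPS1, which makes the ribose donor of nucleotides, by -0.36 ± 0.13 (adjusted p 0.0187) per the authors' deposited table. Of 11 glycogen genes, 3 were higher and 2 lower there. The phosphorylase kinase subunit PHKA1 rose by 0.41 ± 0.09 (adjusted p 3.93e-05) and UGP2, which makes UDP-glucose, by 0.43 ± 0.12 (adjusted p 0.00286), and the mutase PGM2 changed by -0.43 ± 0.12 (adjusted p 0.00160) per the authors' deposited table. Of 17 genes of pyruvate entry and NADH shuttles, 4 were higher and 2 lower in UM-UC-3. GPD1L, a glycerol phosphate dehydrogenase, rose by 0.74 ± 0.12 (adjusted p 6.47e-08) and the pyruvate dehydrogenase component PDHX by 0.36 ± 0.10 (adjusted p 0.00187) per the authors' deposited table. The cytosolic malate dehydrogenase MDH1 was lower in both lines, by -0.46 ± 0.13 (adjusted p 0.00369) in UM-UC-3 and by -0.33 ± 0.06 (adjusted p 3.90e-06) in A-375, per the authors' deposited table. In the A-375 long-form knockout, none of the genes in these 6 lists passed.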

How the data were processed

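RNA was sequenced from A-375 and UM-UC-3 cultures with a stranded mRNA kit, per the labels' protocols. Per the submitters' processing notes, the tools were HISAT2, SAMtools, StringTie and DESeq2 on hg38, with no version listed. The authors deposited 3 DESeq2 tables; their signal column is the mean over a fit's libraries of counts divided by size factors, the log2 columns hold the fold change and its standard error, the score column the Wald statistic, and the p-value columns the p, Benjamini-Hochberg adjusted p and q-value, per the file headers. Recomputed adjusted p-values differed from the deposited ones by at most 6.98e-05.

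Members, lists and motifs were chosen with earlier results of these data known. A gene was called at a deposited adjusted p under 0.05. Differences between tables were computed with Python 3.11.15 and SciPy 1.17.1 and tested on simulated data. Named genes are all members and, from each pathway list, up to 3 called genes with the smallest adjusted p. Alternatives were centring, the q-value, a mean of at least 100, a threshold of 0.01, a 1.5-fold minimum and no filter; leaving out members with overlapping genes or named pseudogenes was chosen after seeing the data. Gene places and lengths are from GENCODE 29 and promoters from RefSeq. Where cultures are not stated to be separate, p-values measure only the spread between these samples, which may be technical.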

Additional observations from a re-analysis of the deposited data

Results flagged for a closer look

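Of the 33 members, 9 had changes that differed between the cell lines by the test of the difference, given here as the log2 change in the A-375 total knockout minus that in UM-UC-3. The difference was 1.46 for LDHA, 1.14 for TPI1, 1.09 for GAPDH, 1.01 for PKM and 0.92 for ENO1. It was -1.25 for HK1, -0.70 for PFKM, -0.87 for ARNT and -0.79 for HIF1A. With no value per library, no sample could be compared with the rest of its group.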

How the results depend on the processing

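Direction and side of the threshold were kept by 95 of 99 single-gene values under centring; the exceptions were ALDOC in A-375, which passed, and GPI (0.028), HIF1A (0.0044) and VEGFA (0.011) in A-375, which turned sign near 0 without a call. The count of higher members in A-375 was 1 at a threshold of 0.01, 1 with a 1.5-fold minimum and 1 among members without overlap or named pseudogene. In UM-UC-3, 4 members were lower with a 1.5-fold minimum, and 4 were higher and 1 lower among members without overlap or named pseudogene, a set of 9 genes. With centring, 8 members had the higher change in A-375. The other 48 counts and medians moved by at most 1.5 times (counts) or less than the SD over the members (medians). Among them, higher members in A-375 were 3 with centring and with the q-value (ALDOC added), lower members in UM-UC-3 were 11 with the q-value (GPI and CA12 added), and 7 members had the higher change in A-375 at a mean of at least 100 (ALDOA and LDHB added). Fits without a library could not be made from fitted values, and depth per sample is unknown. No paired analysis was possible because the tables hold no value per library.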
